A study of Mus musculus with 10 samples.

Results

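The genes described here are the nuclear-encoded subunits of the oxidative phosphorylation machinery, complexes I to V of the inner mitochondrial membrane. They were chosen by symbol among the protein-coding rows of the deposited count table, as Nduf followed by a, b, c, s or v and a number, Sdha to Sdhd, and names beginning with Uqcr, Cox4 to Cox8 or Atp5, with names ending in -ps left out. This gave 85 of 57010 genes: 37 of complex I, 4 of complex II, 8 of complex III, 18 of complex IV and 18 of complex V. The libraries were labelled as whole mammary tumours of untreated mice with the MMTV-PyMT transgene, in which a mammary-active promoter drives the polyoma middle T oncogene. There were 5 libraries of genotype PyMT; RHBDL4 -/- (KO) and 5 of genotype PyMT; RHBDL4 +/+ (WT), all taken 5 weeks after tumour onset. All 10 libraries therefore carried the oncogene, and genotype at RHBDL4, a rhomboid protease of the endoplasmic reticulum encoded by Rhbdd1, was the labelled difference. The comparison addresses how tumours that lack this protease differ in expression from tumours that have it.

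Complexes I to IV pass electrons from NADH and succinate to oxygen and, apart from complex II, pump protons across the inner membrane. Complex V, the ATP synthase, lets the protons flow back through a turning ring of c subunits and makes ATP in its F1 head. Nuclear genes encode most of the subunits, and the mitochondrial genome encodes the remaining core subunits of complexes I, III, IV and V. Heart and skeletal muscle use their own isoforms of several complex IV subunits, among them Cox6a2, Cox7a1 and Cox8b, in place of the common forms Cox6a1, Cox7a2 and Cox8a. Some of the muscle forms are also found in brown fat.

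The upstream windows of Cox7a1, Cox7a2, Cox8b and Cox8a are shown because the muscle forms of complex IV had the widest range in the results below. No window was found for Cox6a2, so its pair with Cox6a1 is not shown. Each window runs from 250 bases before to 50 bases after the start of transcription in RefSeq on GRCm38.p6. The window of Cox7a1 is chr7:30183921-30184220 on the plus strand, that of Cox7a2 chr9:79759804-79760103 on the minus strand, that of Cox8b chr7:140900397-140900696 on the minus strand and that of Cox8a chr19:7217567-7217866 on the minus strand. Capitals mark the E-box CAGCTG in Cox8b, a sequence bound by myogenic factors, and the reverse of the ETS sequence CCGGAAG in Cox8a.
Cox7a1: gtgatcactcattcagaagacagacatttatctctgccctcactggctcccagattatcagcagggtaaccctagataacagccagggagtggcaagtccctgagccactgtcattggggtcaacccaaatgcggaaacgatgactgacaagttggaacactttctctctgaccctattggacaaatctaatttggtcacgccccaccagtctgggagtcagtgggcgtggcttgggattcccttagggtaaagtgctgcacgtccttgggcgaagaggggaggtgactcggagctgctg
Cox7a2: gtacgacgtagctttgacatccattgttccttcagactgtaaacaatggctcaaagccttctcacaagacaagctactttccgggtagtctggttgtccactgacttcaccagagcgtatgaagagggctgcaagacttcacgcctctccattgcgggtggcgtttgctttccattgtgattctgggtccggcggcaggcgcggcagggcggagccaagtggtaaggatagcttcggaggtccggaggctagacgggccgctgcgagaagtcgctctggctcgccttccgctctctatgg
Cox8b: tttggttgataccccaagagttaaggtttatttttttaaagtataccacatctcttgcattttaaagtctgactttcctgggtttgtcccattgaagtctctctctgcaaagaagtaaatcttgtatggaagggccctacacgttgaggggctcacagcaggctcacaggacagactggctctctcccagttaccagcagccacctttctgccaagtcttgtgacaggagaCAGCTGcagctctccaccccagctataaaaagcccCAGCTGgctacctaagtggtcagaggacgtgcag
Cox8a: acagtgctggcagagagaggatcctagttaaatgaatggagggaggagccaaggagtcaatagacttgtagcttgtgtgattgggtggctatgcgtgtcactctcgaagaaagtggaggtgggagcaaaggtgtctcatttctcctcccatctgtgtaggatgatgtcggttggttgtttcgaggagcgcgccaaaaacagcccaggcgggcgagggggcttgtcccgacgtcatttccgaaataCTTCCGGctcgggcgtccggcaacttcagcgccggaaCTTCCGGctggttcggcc
The E-box letters occurred in 2 places in the Cox8b window and the ETS letters in 2 places in the Cox8a window, and none of the sequences searched occurred in the windows of Cox7a1 and Cox7a2.

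A window was found for 68 of the 84 subunit genes with counts, and both strands were searched. The palindromic letters of NRF1, a factor known for driving nuclear mitochondrial genes, occurred at 17 of the 68 genes (25%), against 5.19% of all 27025 genes with a window. These 17 included Sdha and Sdhd of complex II, Uqcrc1 of complex III, and Atp5c1, Atp5g2, Atp5g3 and Atp5h of complex V. The ETS letters occurred at 16 (23.5%), against 9.93% of all genes. YY1 letters (AAGATGGCG) occurred at 7 (10.3% against 1.64%) and letters of the oestrogen-related receptors (TCAAGGTCA) in Sdhd and Atp5g3 (2.94% against 0.466%). The E-box occurred at 6 (8.82% against 18.3%) and those of the muscle factor MEF2 in Cox5b only (1.47% against 4.23%). Some genes have more than 1 window, and a gene was counted once. These matches describe letters in the windows and do not show binding.

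Libraries held 25.7 to 43.3 M counts. Levels are CPM, counts divided by the library total and scaled with TMM, a method that sets the bulk of genes equal between libraries. Rhbdd1 (ENSMUSG00000026142), which checks the labels, lay between 13.2 and 22.3 CPM in KO and between 33.5 and 45.4 CPM in WT replicates 1 to 4, with 25 CPM in WT replicate 5. WT replicate 5 stood apart from the other 9 libraries. Skeletal muscle markers took 10.5% of its counts, against 0.00181% to 0.209% elsewhere, and white adipocyte markers took 2.05%, against 0.0205% to 0.396%. Brown adipocyte markers took 0.182%, against at most 0.00486%, with 30169 counts of Ucp1, the uncoupling protein of brown fat. Luminal epithelium markers, which define the labelled mammary tissue, took 0.0118% there and 0.62% to 0.954% elsewhere, and proliferation markers 0.00401% there and 0.046% to 0.143% elsewhere. The markers of this library thus went against its label of mammary tumour, and WT replicate 5 stands below for the library labelled so. Its TMM factor was 0.588, against 1.01 to 1.10 in the others, so that scaling raised all its CPM values. Every comparison is therefore given with and without it, and part of what follows describes that library itself.

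WT replicate 5 had the highest level of all 10 libraries for each of the 82 subunits that passed the low-count filter; 32.3% of all tested genes were highest there. The other 3 rows, Cox7b2, Cox8c and a second Atp5o identifier, were not tested and are described below. The median ratio of WT replicate 5 to the median of the other 9 libraries was 4.43 over the 82 subunits and 0.925 over all tested genes. Without TMM scaling, 73 of the 82 subunits were still highest in WT replicate 5, against 16.1% of all genes, and the median ratio was 2.41, against 0.507 over all genes. The 9 that were not were Ndufa4l2, Ndufa7, Ndufb2, Ndufc2, Cox7a2l, Atp5g2, Atp5h, Atp5j2 and Atp5s. The subunits together took 2.60% of the unscaled counts of WT replicate 5. In KO replicates 1 to 5 they took 1.02%, 1.07%, 0.993%, 1.09% and 1.00%, and in WT replicates 1 to 4 they took 1.02%, 1.07%, 1.11% and 1.09%. These 9 shares overlapped between the groups. In whole tissue, more cells of a type and more RNA per cell cannot be told apart. The part that the muscle and fat markers play in the subunit levels of WT replicate 5 was not tested.

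**Figure D1:**
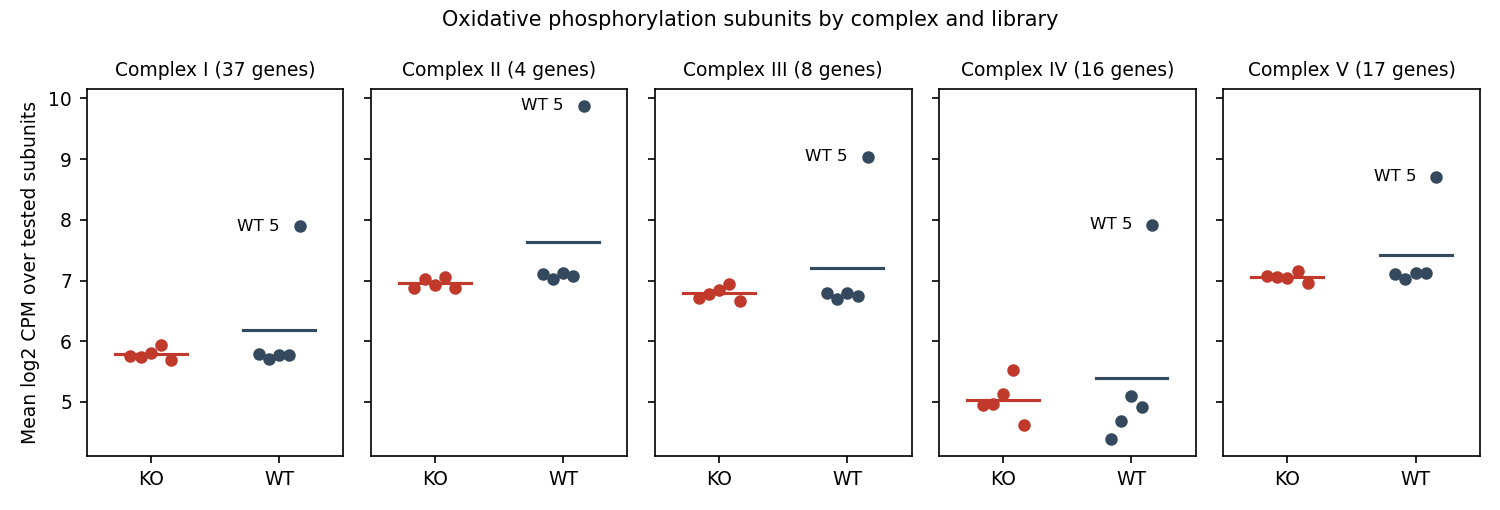
Mean log2 CPM over the tested subunits of each complex (y axis) in every KO library (red) and WT library (dark), with the group mean as a bar. WT replicate 5 stands above the other 9 libraries in all 5 panels, at 7.89 for complex I and 9.88 for complex II, while the KO points lie in the range of WT replicates 1 to 4 or close to it.

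The excess in WT replicate 5 was not even across the machinery. By complex the median ratio was 4.67 for I, 6.49 for II, 5.77 for III, 3.78 for IV and 3.38 for V. Within complex I, the 7 core subunits, which hold the electron path from flavin through the iron-sulphur clusters, had a median ratio of 6.33, and the 30 accessory subunits 4.44. The accessory subunit Ndufb2 was the lowest of complex I with 30.3 CPM against 14.7 to 20.9 CPM, a ratio of 1.77. Sdhb, the iron-sulphur subunit of succinate dehydrogenase, had a ratio of 10.7 (946 CPM against 76.6 to 93.2 CPM). Uqcrc1, a core subunit of complex III, had a ratio of 7.2 (1119 CPM against 131 to 182 CPM), and the small subunit Uqcr11 one of 3.05. In complex V the catalytic beta subunit Atp5b had the highest ratio, 5.38 (5651 CPM against 884 to 1242 CPM). The 3 c-ring genes, which encode the same mature protein, had 1.42 for Atp5g2, 2.26 for Atp5g3 and 3.26 for Atp5g1, but without TMM scaling Atp5g2 was lower in WT replicate 5 (59.7 CPM) than in each of the other 9 libraries (67.6 to 86.3 CPM). Atpif1, which encodes the inhibitor of ATP synthase and is not matched by the symbol rule, went the other way. It stood at 20.2 CPM in WT replicate 5 and at 54.9 to 76.7 CPM in the other 9 libraries.

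**Figure D2:**
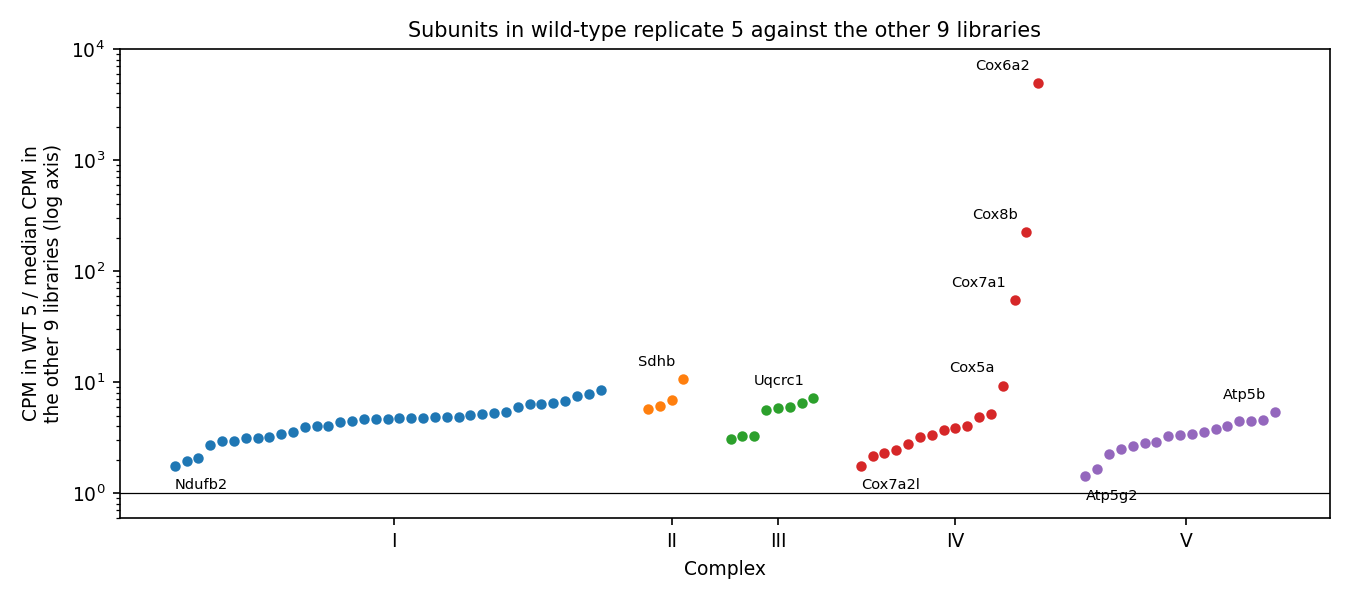
Ratio of CPM in WT replicate 5 to the median CPM of the other 9 libraries (y axis, log scale) for each of the 82 tested subunits, ordered within complexes I to V. All points lie above 1, most between 2 and 9, and Cox7a1 (54.6), Cox8b (226) and Cox6a2 (4931) of complex IV lie far above the rest.

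The muscle isoforms of complex IV showed the widest range. Cox6a2 had 22, 0, 19, 195 and 0 counts in KO replicates 1 to 5 and 0, 1, 23, 4 and 8195 counts in WT replicates 1 to 5. A count of 0 allows up to 3 counts. The ratio of 4931 for this gene rests on a middle value of 4 counts and is imprecise. Cox8b, the muscle and brown fat form of subunit 8, had 68, 165, 58, 214 and 16 counts in KO and 0, 15, 121, 53 and 6129 counts in WT libraries. Cox7a1, the muscle form of subunit 7a, had 191, 148, 99, 165 and 174 counts in KO and 129, 119, 165, 105 and 3185 counts in WT libraries. KO replicate 4 had the second highest count of Cox6a2 and Cox8b. It also had the second highest count of Acta1, the skeletal muscle actin, with 14306, and WT replicate 5 had 721473, whereas the others had 11 to 1462. Cox7a1 did not follow this order: KO replicate 1 was the highest after WT replicate 5. After KO replicate 4, Cox8b did not follow the order of Acta1 either. KO replicate 2 was next for Cox8b with 165 counts and had 29 counts of Acta1.

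Per length, as CPM per kilobase of merged exons, the muscle forms made up most of each of these pairs in WT replicate 5. Cox6a2 made up 54.4% of Cox6a2 plus Cox6a1 there and 0% to 2.6% in the other 9 libraries. Cox7a1 made up 57.8% of its pair with Cox7a2, against 3.53% to 6.83%. Cox8b made up 69.6% of its pair with Cox8a, against 0% to 7.22%. The common forms were higher in WT replicate 5 as well, with 675 CPM per kilobase for Cox6a1 against 203 to 324 in the others. Other alternative isoforms did not take over their pairs. Cox4i2, the lung and hypoxia form of subunit 4, made up 0.964% of its pair with Cox4i1, against 0.451% to 1.43%. Ndufa4l2, a hypoxia-induced paralogue, made up 2.14% of its pair with Ndufa4, against 0.803% to 4.68%, and Cox6b2, the testis form, 0.321% of its pair with Cox6b1, against 0.129% to 0.567%. Cox7b2 had at most 3 counts in any library and Cox8c, a testis form, was at or below 0.124 CPM. The second Atp5o identifier had 0 counts in all 10 libraries.

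**Figure D3:**
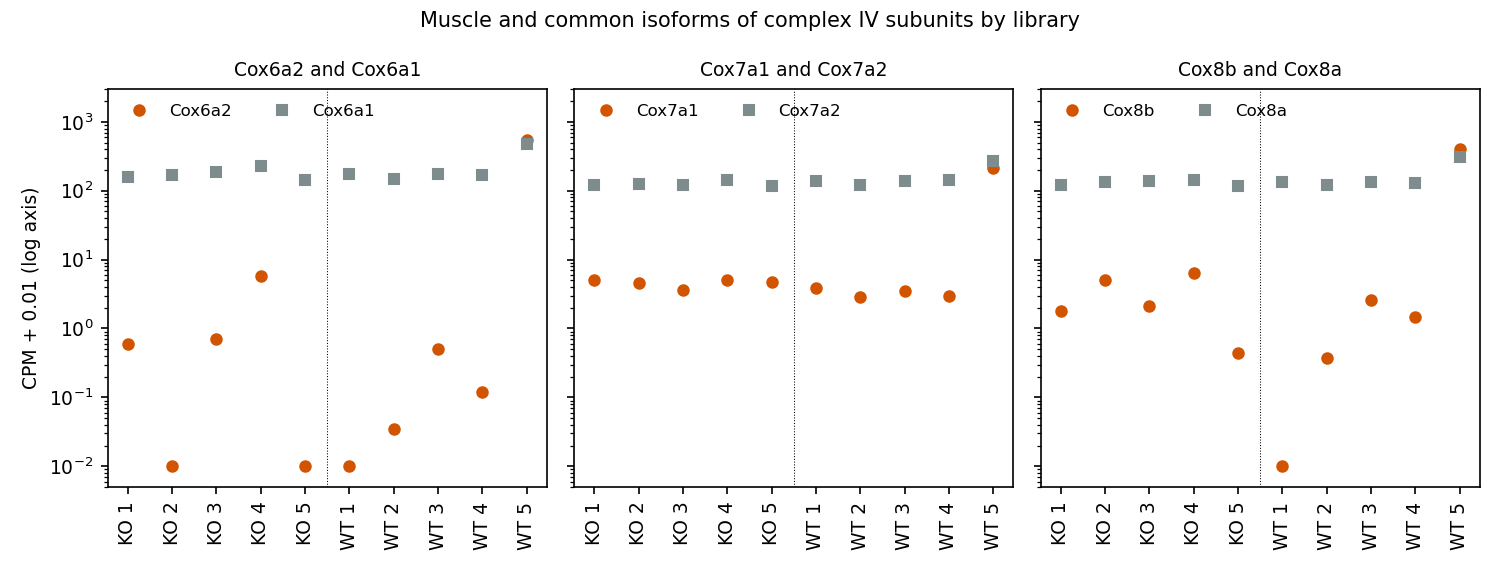
CPM plus 0.01 (y axis, log scale) of the muscle form (orange circles) and the common form (grey squares) of 3 complex IV subunits in each library, KO left of the dotted line and WT right of it. The muscle forms reach the level of the common forms in WT 5 and lie far below them in the other 9 libraries; points at the bottom of the axis are counts of 0.

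With all 10 libraries, 81 of 82 subunits had a negative log2 fold change of KO over WT, and Cox7a2l, a paralogue that links complexes III and IV into supercomplexes, was the exception with 0.15 ± 0.23 (SE). Of all 18577 genes tested, 56.2% were negative. The median was -0.71 over the subunits and -0.06 over all genes. By complex it was -0.75 for I, -1.19 for II, -0.89 for III, -0.60 for IV and -0.48 for V. No subunit passed edgeR's quasi-likelihood test after Benjamini-Hochberg adjustment, and neither did any other gene (0.0% called); the smallest adjusted p of a subunit was 0.669. DESeq2 called 50 genes (0.269%) and limma-voom 17 (0.0915%), none of them a subunit, although DESeq2 gave no adjusted p for 46 of the 82 subunits. At an unadjusted edgeR p under 0.05 there were 4 subunits, all lower in KO (4.88% of 82), against 4.44% of all genes in that direction. They were Ndufs1, Sdha, Cox7a1 and Atp5b. This count was 0 or 1 when any single KO library was left out and 10 to 16 when any one of WT replicates 1 to 4 was.

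The size of those differences rested on WT replicate 5, although Atp5b kept its sign without it, as described below. Sdha, the flavoprotein of succinate dehydrogenase, had 209, 255, 188, 203 and 208 CPM in KO and 242, 246, 249, 240.1 and 1663 CPM in WT libraries. KO replicate 2 lay above WT replicates 1 to 4, so the groups overlapped. Its log2 fold change was -1.31 ± 0.59 with all 10 libraries (edgeR quasi-likelihood adjusted p = 0.669) and -0.18 ± 0.10 without WT replicate 5 (adjusted p = 0.505). Ndufs1, the largest core subunit of complex I, had -1.37 ± 0.61 with all 10 and -0.17 ± 0.11 without WT replicate 5. Cox7a1 changed sign, with -3.29 ± 1.34 over all 10 libraries and 0.49 ± 0.20 without WT replicate 5. Cox8b likewise had -4.70 ± 2.15 with all 10 and 1.52 ± 1.07 without it.

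Over the 9 remaining libraries the subunits divided evenly, with 41 of 82 negative (46.8% of 19016 genes) and a median of 0.00, against 0.03 over all genes. The medians were 0.02 for complex I, -0.11 for II, 0.01 for III, 0.05 for IV and -0.02 for V. All 4 complex II subunits were negative, between -0.18 and -0.06, and none had p under 0.05. No subunit was called by edgeR's quasi-likelihood test, which called 2 genes of all tested (0.0105%). DESeq2 called Atp5b (adjusted p = 0.0306) among 433 genes (2.28%), and limma-voom called none of the subunits among 142 genes (0.747%). At an unadjusted p under 0.05 there were 11 subunits (13.4%), against 11.6% of all genes. That number was 7 without KO replicate 3, 4 or 5, 5 without WT replicate 2 and 6 without WT replicate 4, and 1, higher in KO, with libraries summed by the leading number of their names. Of the 11, 9 were higher in KO (11% of subunits, against 5.74% of all genes) and 2 lower (2.44%, against 5.85% of all genes). Limma-voom gave 10 higher and 6 lower at that p. Groups did not overlap for 1 subunit with KO above WT (1.22%, against 2.0% of all genes) and 2 with KO below WT (2.44%, against 3.44% of all genes), 3 in all (3.66%, against 5.44% of all genes).

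**Figure D4:**
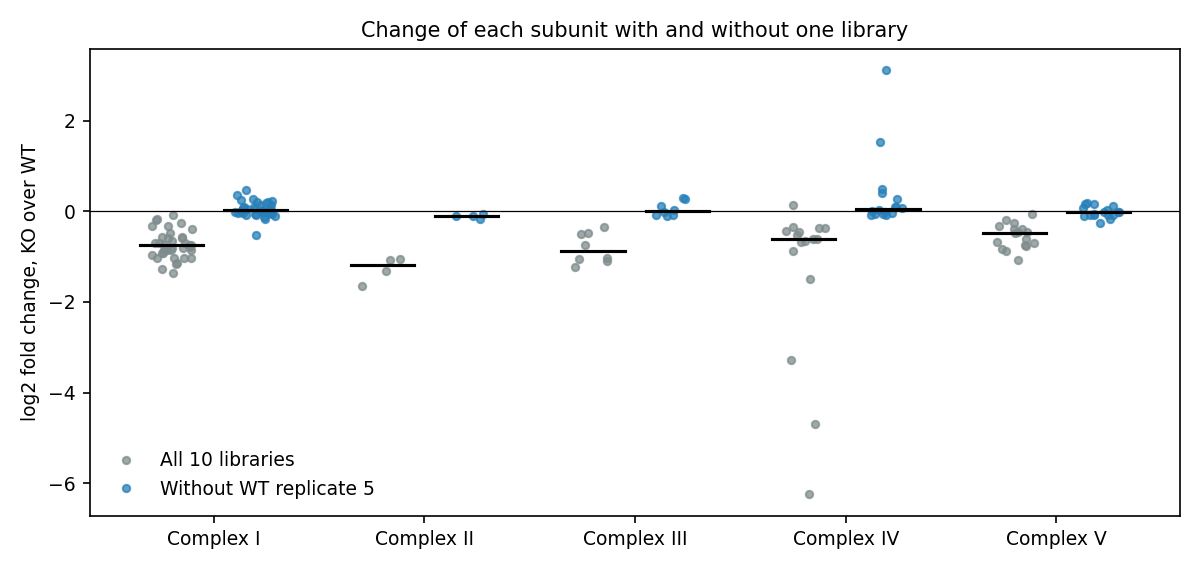
Log2 fold change of KO over WT (y axis) for each tested subunit by complex, with all 10 libraries (grey) and without WT replicate 5 (blue); black bars are medians. The grey points lie below 0 in every complex except for Cox7a2l, and the blue points lie around 0, with Cox6a2 (3.11) and Cox8b (1.52) of complex IV highest.

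The 2 subunits below 0 at that p were the alpha and beta subunits of the F1 head. Atp5b, the catalytic beta subunit, had 1044, 1124, 1055, 1098 and 944 CPM in KO and 1248, 1298, 1275 and 1214 CPM in WT replicates 1 to 4. Every KO value was below every WT value. The means were 1053 ± 68.9 CPM in KO and 1259 ± 36.3 CPM in WT (SD, n = 5 and 4), a log2 fold change of -0.26 ± 0.08 (edgeR quasi-likelihood adjusted p = 0.317). Atp5a1, the alpha subunit, averaged 923 ± 31.5 CPM in KO and 1041 ± 49.1 CPM in WT (SD, n = 5 and 4), again without overlap, with -0.17 ± 0.08 (adjusted p = 0.426). The central stalk subunit Atp5c1 was at -0.10 ± 0.07 (adjusted p = 0.638) over the 9 libraries. Its groups overlapped in the scaling of the 9 libraries and not in that of all 10. All 3 were KO below WT over the 10 libraries, the only subunits without overlap there; 1.18% of all genes had KO below WT and 0.807% KO above WT. All 5 genes of the head and central stalk were negative without WT replicate 5, between -0.26 and -0.01, of which Atp5d (-0.01) and Atp5e (-0.06) were within their standard errors. Among the other parts of complex V, 3 of 4 peripheral stalk genes and 1 of 3 c-ring genes were negative. Atp5j2, the f subunit of the membrane part, named here after its values were seen, had 345 CPM in KO replicate 4 and 143 to 181 CPM in the other 8 of these libraries.

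The 9 subunits above 0 at that p were spread over complexes I, III and IV. Ndufb9, an accessory subunit of the membrane arm of complex I, had 74.7, 55.1, 81.7, 81.9 and 68.9 CPM in KO and 55.2, 47.8, 55.7 and 52.5 CPM in WT replicates 1 to 4. KO replicate 2 lay within the WT range and the other 4 above it. Its log2 fold change was 0.46 ± 0.13 (edgeR quasi-likelihood adjusted p = 0.296). Cox6c, a small subunit of complex IV, had 184, 162, 197, 198 and 177 CPM in KO and 147, 143, 158 and 157 CPM in WT. It was the only subunit with every KO value above every WT value, at 0.28 ± 0.09 (adjusted p = 0.317). Cox7a2l averaged 143 ± 28.6 CPM in KO and 108 ± 6.06 CPM in WT (SD, n = 5 and 4), a value of 0.40 ± 0.14 (edgeR quasi-likelihood adjusted p = 0.345). KO replicate 3 was highest at 188 CPM, and KO replicate 2, at 109.7 CPM, lay among the WT libraries. Uqcr10, a small subunit of complex III, was at 0.27 ± 0.09, and the complex I subunits Ndufa11, Ndufv3, Ndufa7 and Ndufv2 were at 0.36, 0.28, 0.25 and 0.23. Cox7a1 was the last of the 9, at 0.49 ± 0.20 with 4.89 ± 0.633 CPM in KO and 3.49 ± 0.515 CPM in WT (SD, n = 5 and 4). Beside it, all 17 skeletal muscle markers tested were positive in KO over these 9 libraries. Their summed share was 0.0151%, 0.00209%, 0.0242%, 0.209% and 0.00186% in KO replicates 1 to 5 and 0.00181% to 0.0138% in WT replicates 1 to 4. All 14 white adipocyte markers were positive too. They took 0.0215%, 0.396%, 0.0392%, 0.335% and 0.0272% in KO replicates 1 to 5 and 0.0205% to 0.0762% in WT replicates 1 to 4. Both shares overlapped between the groups. The part of these markers in the value of Cox7a1 was not tested.

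Of the 9 subunits higher in KO at an unadjusted p under 0.05, 8 lie on chromosomes 11, 15 and 17 (GRCm38), a grouping noticed after the values were seen. How many of the other genes of these chromosomes were higher at that p, or positive, was not counted. The subunit counts here therefore lack that background. All 14 tested subunits on these chromosomes had a positive log2 fold change, with a median of 0.26. They were Uqcr10, Uqcrq, Atp5g1 and Atp5h on chromosome 11, Ndufb9, Ndufa6, Cox6c and Atp5g2 on chromosome 15, and Cox7a2l, Ndufa11, Ndufa7, Ndufb10, Ndufv2 and Ndufv3 on chromosome 17. They stayed positive in each fit that left out 1 of the 9 libraries, but the chromosomes were picked from these same values. Those at an unadjusted p under 0.05 numbered 5 without KO replicate 3 or WT replicate 4 and 4 without WT replicate 2. Of the 68 on other chromosomes, 27 were positive, with a median of -0.02. The other genes of these 3 chromosomes were also above 0 in the middle. Their median was 0.16 over 887 genes on chromosome 11, 0.13 over 435 genes on chromosome 15 and 0.13 over 515 genes on chromosome 17. Those of the remaining chromosomes lay between -0.12 and 0.09. By median log2 fold change the subunits of these 3 chromosomes had the sign of the other genes there. The values differed between KO libraries. On chromosome 17 the other genes were at 0.13, 0.00, 0.00, -0.02 and 0.25 in KO replicates 1 to 5, as log2 difference from the middle of the 9 libraries, and the 6 subunits at 0.16, -0.08, 0.18, 0.19 and 0.28. On chromosome 11 the other genes were at 0.17, -0.05, 0.13, -0.03 and 0.19 and the 4 subunits at 0.23, 0.00, 0.28, 0.05 and 0.17. On chromosome 15 the other genes were at 0.15, -0.08, 0.12, -0.02 and 0.12. The 4 subunits there were at 0.16, -0.01, 0.26, 0.25 and 0.07. In KO replicate 4 the subunits thus lay above 0 and the other genes below 0 on all 3 chromosomes. The subunits of this library also lay above 0 on most other chromosomes, such as 0.20 on chromosome 1 and 0.28 on chromosome 16. The exceptions were chromosomes 3 (-0.01), 7 (0.00) and 12 (-0.11). KO replicates 1 and 5 were high on all 3 chromosomes for the other genes, and KO replicates 2 and 4 were not. What sets these chromosome medians was not tested.

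**Figure D5:**
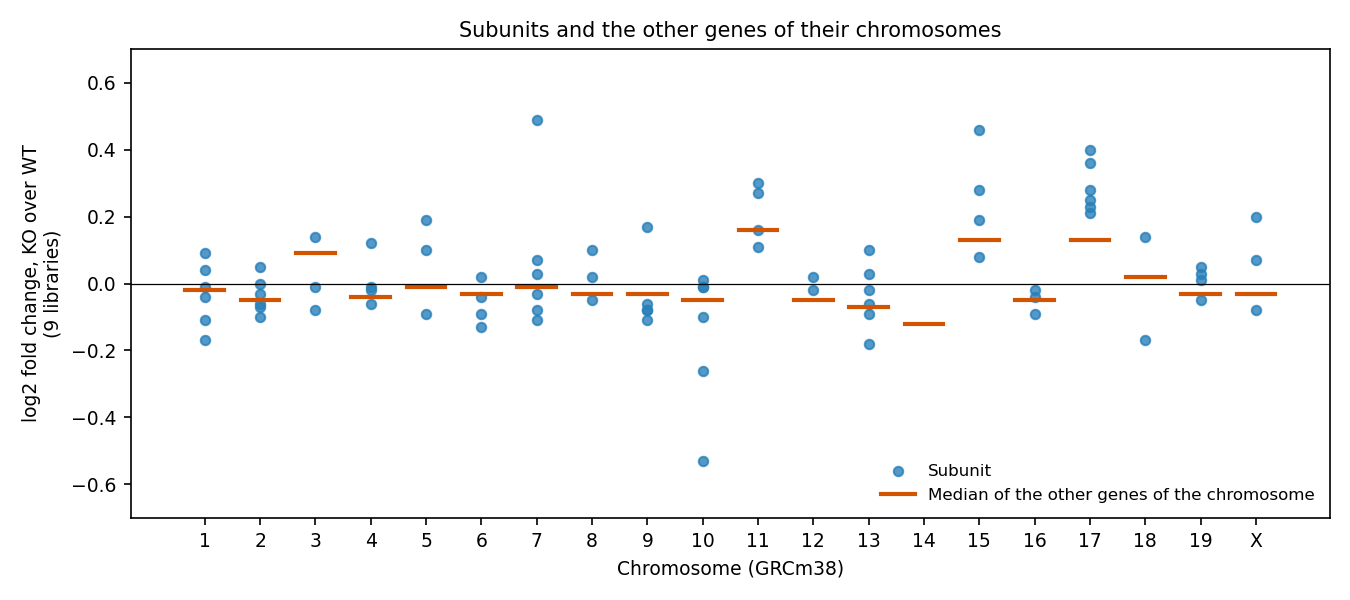
Log2 fold change of KO over WT in the 9 libraries without WT replicate 5 (y axis) for each tested subunit (blue) by chromosome, with the median of the other genes of that chromosome as an orange bar. On chromosomes 11, 15 and 17 all 14 subunits and the medians (0.16, 0.13 and 0.13) lie above 0; Cox6a2 (3.11) and Cox8b (1.52) on chromosome 7 lie off the axis.

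The genes around the subunits were read in the same 9-library fit. After adjustment, edgeR called none of the assembly factors, the cytochrome c gene, the regulators, the mitochondria-encoded subunits or the cycle enzymes. Of all genes tested, 46.8% were negative. Groups did not overlap for 3.44% of all genes with KO below WT and for 2.0% with KO above WT. Of each list the 2 genes with the smallest p are named, a choice that favours genes whose groups do not overlap. Assembly factors of complex I were negative in 14 of 17, with a median of -0.08 and none at an unadjusted p under 0.05; the lowest p were those of Nubpl (-0.29) and Timmdc1 (-0.30). Those of complex II were negative in 3 of 4, with Sdhaf2 at -0.22 and Sdhaf4 at -0.21. Of the complex III factors 3 of 6 were negative, and Ttc19, which clears Rieske protein fragments, was at 0.42 ± 0.14 (adjusted p = 0.332), with Uqcc1 at -0.19. Complex IV factors were negative in 13 of 22. Cox17, the copper chaperone of complex IV, averaged 39.7 ± 3.85 CPM in KO and 50.1 ± 5.72 CPM in WT (SD, n = 5 and 4), without overlap, at -0.34 ± 0.11 (edgeR quasi-likelihood adjusted p = 0.33), and Cmc2 was at -0.40. Tmem70, which helps to build the c ring, was KO below WT at -0.25 ± 0.09 (adjusted p = 0.345), and Tmem242 was at 0.13.

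Cycs, the gene of cytochrome c, which carries electrons between complexes III and IV, had 59.0, 71.4, 47.2, 73.8 and 54.6 CPM in KO and 81.1, 81.8, 87.6 and 89.3 CPM in WT replicates 1 to 4. No KO library reached a WT library, and the log2 fold change was -0.47 ± 0.13 (edgeR quasi-likelihood adjusted p = 0.296). Cyc1, the cytochrome of complex III that the symbol rule does not match, was at 0.06 ± 0.08, and Ndufab1 of complex I at -0.17. In WT replicate 5 Cycs stood at 772 CPM and Cyc1 at 707 CPM.

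Among 14 tested regulators of nuclear mitochondrial genes, 9 were negative. Tfam, which packs mitochondrial DNA and starts its transcription, had 55.2, 55.5, 53.4, 53.6 and 54.3 CPM in KO and 69.0, 65.9, 68.6 and 68.1 CPM in WT replicates 1 to 4. The groups did not overlap and each was narrow, at 54.4 ± 0.951 CPM and 67.9 ± 1.37 CPM (SD, n = 5 and 4). Its log2 fold change was -0.32 ± 0.07, not called by edgeR (quasi-likelihood adjusted p = 0.242) but called by DESeq2 (adjusted p = 8.24e-07) and limma-voom (adjusted p = 0.0482). Ppargc1a, the coactivator of mitochondrial biogenesis, was at 0.70 ± 0.32 in KO over WT (adjusted p = 0.44), with 124 CPM in WT replicate 5 and 2.62 to 9.3 CPM in the other libraries. All 13 mitochondria-encoded subunits were positive over the 9 libraries, with a median of 0.26. They took 4.06%, 4.09%, 3.95%, 4.37% and 3.93% of counts in KO replicates 1 to 5 and 3.11%, 3.98%, 3.68%, 3.47% and 16.3% in WT replicates 1 to 5. Libraries were selected for poly(A), which captures mitochondrial transcripts only in part. The one at an unadjusted p under 0.05, mt-Nd6, was at 0.43 ± 0.14 (edgeR quasi-likelihood adjusted p = 0.32) with every KO library above WT replicates 1 to 4, and mt-Nd4 was at 0.23. In all, 2 of the 13 had KO above WT without overlap, mt-Nd6 among them, against 2.0% of all genes. Enzymes of the tricarboxylic acid cycle, which feeds the chain with NADH and succinate, were negative in 10 of 13 with a median of -0.10. Ogdh was at 0.31 and Fh1 at -0.22, and none had p under 0.05. Over the same libraries all 12 proliferation markers were negative in KO, with a summed share of 0.046% to 0.0981% in KO and 0.107% to 0.143% in WT. Of the 12, 11 had an unadjusted edgeR p under 0.05, all lower in KO, against 5.85% of all genes. Groups did not overlap for 7, all with KO below WT, against 3.44% of all genes. The edgeR quasi-likelihood test called 1 of the 12 (adjusted p = 0.0372). The part of the share of dividing cells in the Tfam, Cycs and Atp5b values was not tested.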

How the data were processed

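Poly(A) RNA of 10 samples labelled as whole mammary tumours was sequenced as stranded Illumina libraries, per the labels' protocols. The deposited values are raw read counts per Ensembl gene that the authors made, 1 column per library. FastQC, STAR, featureCounts, DESeq2 and the build GRCm39 are listed in the submitters' processing notes. Versions, annotation, strand setting and multi-mapping rule were not given in the sources used here, so reads of subunit genes with near-identical pseudogenes may have been split or dropped. Symbols came from a gene name table with older names (Atp5a1 for Atp5f1a, Atp5b for Atp5f1b). They matched 52029 genes with 99.66% of counts, and 0 count columns lacked a sample. Gene type, chromosome and exon length came from a GENCODE GRCm38 annotation matched by gene ID, an older build than that of the counts. A further 12 rows with matching letters were not protein-coding or were named -ps, and Ndufa4, known as a complex IV subunit, was counted by symbol with complex I. Atp5s, which RefSeq names Dmac2l, was counted by its older symbol with complex V.

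KO was compared with WT in edgeR 4.0.16 (R 4.3.3; TMM, filterByExpr, robust quasi-likelihood F-test) on the counts of all genes, with Benjamini-Hochberg adjustment and calls at an adjusted p under 0.05. The standard error is the log2 fold change divided by the square root of F. DESeq2 1.42.0, limma-voom (limma 3.58.1) with sample quality weights, RLE scaling, no low-count filter, sums over libraries with the same leading number in their names, and leaving out each library were alternatives. Mean log2 CPM used a prior count of 2, and chromosome medians used genes with a mean log2 CPM of at least 3. The main edgeR fit, DESeq2 and limma-voom were run on simulated counts, and the other alternatives were not. Those counts were drawn independently for each library, so they held no outlying library and no shared leading numbers. The subunits, lists and alternatives were chosen with earlier results of these data known. Named genes are Rhbdd1, the 3 subunits of each complex with the smallest p in each fit, the isoform pairs, Cox7a2l, Atpif1, the extremes of the ratio in WT replicate 5, and the 2 genes of each other list with the smallest p. Nothing in the labels ties libraries to separate animals, and the leading number is shared by KO replicates 3 and 4, by WT replicates 1 and 2 and by WT replicates 3 and 4. The p-values measure the spread between libraries, which may be partly technical. Each library has its own batch label, so batch and group cannot be told apart. Replicate numbers follow accession order. One gene that this rule names is not reported here.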

Additional observations from a re-analysis of the deposited data

Results flagged for a closer look

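In groups of 5 libraries the highest or lowest library was set against the others by Dixon's test, which chance passes in about 1 in 20 groups. It was run on the complex means and on single genes given in the text, not on all subunits. Some of these genes were named for their ratio in WT replicate 5 or their p with all 10 libraries. The groups also share the same libraries, so the number that passed cannot be set against that chance rate. Of 136 groups tested, 69 passed. In 64 of them the library was WT replicate 5. It stood apart in mean log2 CPM over all subunits (8.28) and over complexes I (7.89), II (9.88), III (9.04), IV (7.92) and V (8.71).

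The single genes for which WT replicate 5 stood apart from the other 4 WT libraries were the following, with CPM in that library. In complex I they were Ndufs1 at 626, Ndufa9 at 378, Ndufs7 at 306, Ndufb9 at 244, Ndufa11 at 71.1 and Ndufv3 at 241. In complex II they were Sdha at 1663, Sdhb at 946, Sdhc at 773 and Sdhd at 648. In complex III they were Uqcrc2 at 838, Uqcrc1 at 1119, Uqcrb at 625, Uqcr10 at 269 and Uqcrq at 314. In complex IV they were Cox7a1 at 213, Cox8b at 409, Cox5a at 266, Cox6c at 775 and Cox7a2l at 193. In complex V they were Atp5b at 5651, Atp5a1 at 3999, Atp5k at 286 and Atp5c1 at 1163.

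It also stood apart for genes given by the text for other reasons. Those of complex I were Ndufb2 at 30.3, Ndufa7 at 131, Ndufv2 at 825, Ndufa6 at 366, Ndufb10 at 419 and Ndufab1 at 267 CPM. Those of complexes III and IV were Uqcr11 at 228, Cyc1 at 707, Cox6a2 at 547, Cox6a1 at 474, Cox7a2 at 274 and Cox8a at 307 CPM. Those of complex V were Atp5j2 at 545, Atp5g1 at 330.4, Atp5g3 at 627, Atp5d at 553, Atp5e at 274 and Atp5h at 562 CPM. The inhibitor gene Atpif1 was low there at 20.2 CPM. Cytochrome c and the regulators had Cycs at 772, Tfam at 79.4 and Ppargc1a at 124 CPM. Assembly factors had Cox17 at 188, Tmem70 at 145, Tmem242 at 219, Ttc19 at 88.1, Uqcc1 at 149.6, Timmdc1 at 63.9, Sdhaf2 at 92.8 and Sdhaf4 at 25 CPM. The mitochondria-encoded mt-Nd6 and mt-Nd4 stood at 7438 and 27831 CPM, and the cycle enzymes Ogdh and Fh1 at 1646 and 667 CPM.

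Among the genes tested, a KO library stood apart for 5. KO replicate 2 was low for Ndufv3, an accessory subunit of complex I, at 68.1 CPM against 82.2 to 86.3 CPM in the other 4 KO libraries, and for Ndufa7 at 59.6 CPM against 71.3 to 75.6 CPM. KO replicate 4 was high for Atp5j2, the f subunit of complex V, at 322 CPM against 135 to 167 CPM in the other 4 KO libraries. It was also high for Ndufa6, at 105 CPM against 90.2 to 91.7 CPM, and for Cox6a2, at 5.87 CPM against 0 to 0.69 CPM.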

How the results depend on the processing

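With all 10 libraries, DESeq2 called 50 genes and limma-voom 17, against 0 in edgeR. Subunits at an unadjusted p under 0.05 numbered 0 with DESeq2, 7 with limma-voom (1 lower and 6 higher in KO) and 14, all lower, with libraries summed by leading number, against 4, all lower. DESeq2 gave no adjusted p for 46 of the 82 subunits, among them those 4, so its 0 is not a weaker result for them. Limma-voom moved the median log2 fold change to -0.07 for complex I, -0.19 for complex II and -0.11 for complex III, left 59 of 82 subunits negative, and reversed Cox7a1 to 0.51 and Cox8b to 0.31; the cause was not tested. Leaving out 1 library at a time gave 0 to 2 called genes, 0 to 16 subunits at an unadjusted p under 0.05, and medians of -0.92 to 0.02 for complex I, -1.37 to -0.11 for complex II and -1.06 to 0.01 for complex III. The upper end of each of these medians was the fit without WT replicate 5. Cox7a1 ranged from -3.59 to 0.49 and Cox8b from -5.13 to 1.52, positive only without WT replicate 5. Rhbdd1 was called by DESeq2 (adjusted p = 0.000277) and limma-voom (adjusted p = 0.036). In the 9 libraries, DESeq2 called 433 genes and 1 subunit, Atp5b at -0.26, limma-voom called 142 genes, and edgeR on sums by leading number called 0 genes with 1 subunit at an unadjusted p under 0.05, against 2 genes and 11 subunits. Limma-voom moved the complex V median to -0.09 and made 57 of 82 subunits negative, against 41. Leaving out 1 library gave 0 to 1 called genes, 5 to 12 subunits at that p and a complex V median of -0.09 to -0.01. In every setting run on the 9 libraries the 14 subunits on chromosomes 11, 15 and 17 stayed positive. Of them, 4 to 9 had p under 0.05 with 1 library left out, and 1 with libraries summed by leading number. These chromosomes were picked from the same values, so the settings cannot test the grouping. With all 10 libraries, every one of the 14 except Cox7a2l was negative. No paired analysis was possible because the replicate numbers only name libraries.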
